A study of Mus musculus with 6 samples.

Results

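The genes described are the 39 mouse Hox genes, all rows of the deposited tables whose symbol was Hox followed by a cluster letter from a to d and a number. They were 39 of the 23366 genes listed: 11 Hoxa genes, 10 Hoxb, 9 Hoxc and 9 Hoxd genes. The tables hold RNA-seq counts from palatal shelves of mouse embryos at E14.25, the paired outgrowths that become the secondary palate. There were 3 KO libraries (replicates 1, 2 and 3), genotype Kmt2dfl/fl Wnt1-Cre, and 3 WT libraries (replicates 2, 3 and 4), for which the labels do not say whether floxed alleles or the Cre were present. Wnt1-Cre acts in the dorsal neural tube and the neural crest, so oral epithelium, vessels, blood and mesoderm-derived muscle in a KO shelf still carry an intact Kmt2d. The comparison addresses what loss of this histone H3 lysine 4 methyltransferase from the crest does to palatal gene expression. The samples are whole shelves, so fewer cells of a type and less RNA per cell cannot be told apart. The labels describe biological replicates and name no embryo or litter, so p-values measure the spread between these samples.

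Hox genes encode homeodomain transcription factors that give segments along the body axis their identity. They lie in 4 clusters, and genes near the 3′ end of a cluster (low numbers) are used earlier and further forward than those near the 5′ end (high numbers); genes with the same number in different clusters are called paralogues. The cranial neural crest that builds the upper jaw and most of the palate comes from a region anterior to Hox expression and is known as Hox-negative, and the silent clusters are held by Polycomb repressors, among them the methyltransferase Ezh2. The crest of the second pharyngeal arch, further back, uses Hoxa2, and mice without Hoxa2 have a cleft secondary palate.

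Gene counts totalled 18902786, 12721979 and 20203309 in KO replicates 1, 2 and 3, against 24916079, 20785074 and 21965460 in WT replicates 2, 3 and 4. KO replicate 2 stood apart: 47.5% of its listed pairs lay in no annotated gene (12.3% to 18.1% elsewhere), and its summed count over the 16 skeletal muscle genes was 152358, against 4886 to 17940 elsewhere. Kmt2d (listed under its older symbol Mll2) had 254, 539 and 193 CPM in KO libraries, against 197, 211 and 171 CPM in WT libraries (log2 fold change 0.77, SE 0.35, edgeR quasi-likelihood adjusted p = 0.368, and log2 fold change 0.21 without KO replicate 2). CPM are counts scaled to a common TMM-normalised library size. The floxed exons cannot be separated in a whole-gene count, so this row does not check the genotype. Of a palate mesenchyme list, 21 of 22 genes passed the filter on low counts, which 60.9% of all genes passed. Most genes of other tissue lists passed too, such as 13 of 16 for muscle and 11 of 16 for neurons. This therefore does not check the tissue label. Barx1 of that list had 114, 134 and 193 CPM in KO libraries and 153, 143 and 161 CPM in WT libraries.

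The promoters of the Hox genes show what kind of gene is at or near 0 here. Below are the 250 bases before the transcription start, 5′ to 3′, from RefSeq (GRCm38.p6), with every CpG in capitals, for the pair with the most counts among the listed promoters of the Hoxd cluster and for the 2 most CpG-rich of the listed promoters with no count in any library. CpG-rich promoters are typical of developmental regulators under Polycomb control.
Hoxd8, chr2:74704365-74704614, plus strand: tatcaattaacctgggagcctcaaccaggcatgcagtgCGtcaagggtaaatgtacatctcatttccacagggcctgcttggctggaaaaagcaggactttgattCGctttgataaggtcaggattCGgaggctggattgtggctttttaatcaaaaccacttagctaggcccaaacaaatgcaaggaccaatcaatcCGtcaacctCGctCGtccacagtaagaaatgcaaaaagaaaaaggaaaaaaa
Hoxd4, chr2:74721728-74721977, plus strand: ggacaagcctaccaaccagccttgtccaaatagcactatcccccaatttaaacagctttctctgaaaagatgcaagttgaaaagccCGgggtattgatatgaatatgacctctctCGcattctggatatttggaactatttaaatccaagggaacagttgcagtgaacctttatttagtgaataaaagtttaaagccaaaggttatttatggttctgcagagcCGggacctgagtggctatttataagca
Hoxa13, chr6:52260881-52261130, minus strand: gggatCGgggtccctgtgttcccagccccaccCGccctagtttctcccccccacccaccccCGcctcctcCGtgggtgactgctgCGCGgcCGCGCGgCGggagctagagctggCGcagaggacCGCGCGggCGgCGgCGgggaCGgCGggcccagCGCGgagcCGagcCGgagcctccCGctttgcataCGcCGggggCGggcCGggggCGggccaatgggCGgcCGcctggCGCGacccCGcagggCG
Hoxa5, chr6:52204588-52204837, minus strand: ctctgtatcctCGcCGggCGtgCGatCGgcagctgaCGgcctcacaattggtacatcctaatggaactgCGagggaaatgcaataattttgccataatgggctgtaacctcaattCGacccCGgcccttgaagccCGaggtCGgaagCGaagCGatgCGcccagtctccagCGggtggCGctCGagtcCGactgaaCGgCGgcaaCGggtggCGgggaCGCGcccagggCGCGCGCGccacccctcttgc
The Hoxd8 and Hoxd4 stretches held 6 and 3 CpG, and those of the uncounted Hoxa13 and Hoxa5 held 35 and 28. These 4 were picked by their counts and CpG number and do not stand for a rule, since counted genes also had CpG-rich promoters. In the full RefSeq windows, which add the first 50 bases of the transcript, 22 of the 39 Hox genes had an entry, with a median of 13.5 CpG. The median was 14 CpG over other listed genes. Among these it was 21 for genes that passed the filter on low counts and 2 for genes with no count in any library. The motif searched was CG, which reads the same on both strands. At least 10 CpG were present in 68.2% of the Hox windows, in 57.9% of the windows of other listed genes, and in 5.87% of the windows of the 3049 other listed genes that had no count in any library. Of the 6 windows of Hox genes with no count, 5 held at least 10 CpG: Hoxa13 (45), Hoxa5 (29), Hoxa6 (26), Hoxd10 (22) and Hoxd12 (13), with Hoxa9 (4) below. Among counted Hox genes, Hoxd13 held 37 CpG (2 counts in all), Hoxd1 29 (8 counts) and Hoxd9 20 (20 counts). Of the windows of other genes that passed the filter on low counts, 81.9% reached 10. This is a description of base composition over few promoters, without a test.

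All 39 Hox genes were at or near 0 in both groups. Their counts summed to 27, 36 and 33 in KO libraries, against 69, 30 and 52 in WT libraries. Scaled for depth, that was 1.71, 2.72 and 1.82 CPM in KO libraries, against 2.46, 1.34 and 2.24 CPM in WT libraries, for all 39 genes together. The means were 2.09 ± 0.557 CPM in KO and 2.01 ± 0.589 CPM in WT (SD, n = 3 each), a log2 ratio of 0.05 where the libraries of a group had an SD of 0.42 on the log2 scale. KO and WT libraries overlapped, and the difference was far smaller than the spread between replicates. With total gene counts, Rn45s among them, as the scaling in place of TMM the log2 ratio was -0.16. It was 0.02 by TMM with Rn45s and Lars2 left out. On leaving out 1 library it ran from -0.19 (KO replicate 2) to 0.22 (WT replicate 2), so the sum had no stable direction. No Hox gene averaged 1 CPM over the 6 libraries, and the highest single value was 1.01 CPM (Hoxd8 in KO replicate 1).

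**Figure D1:**
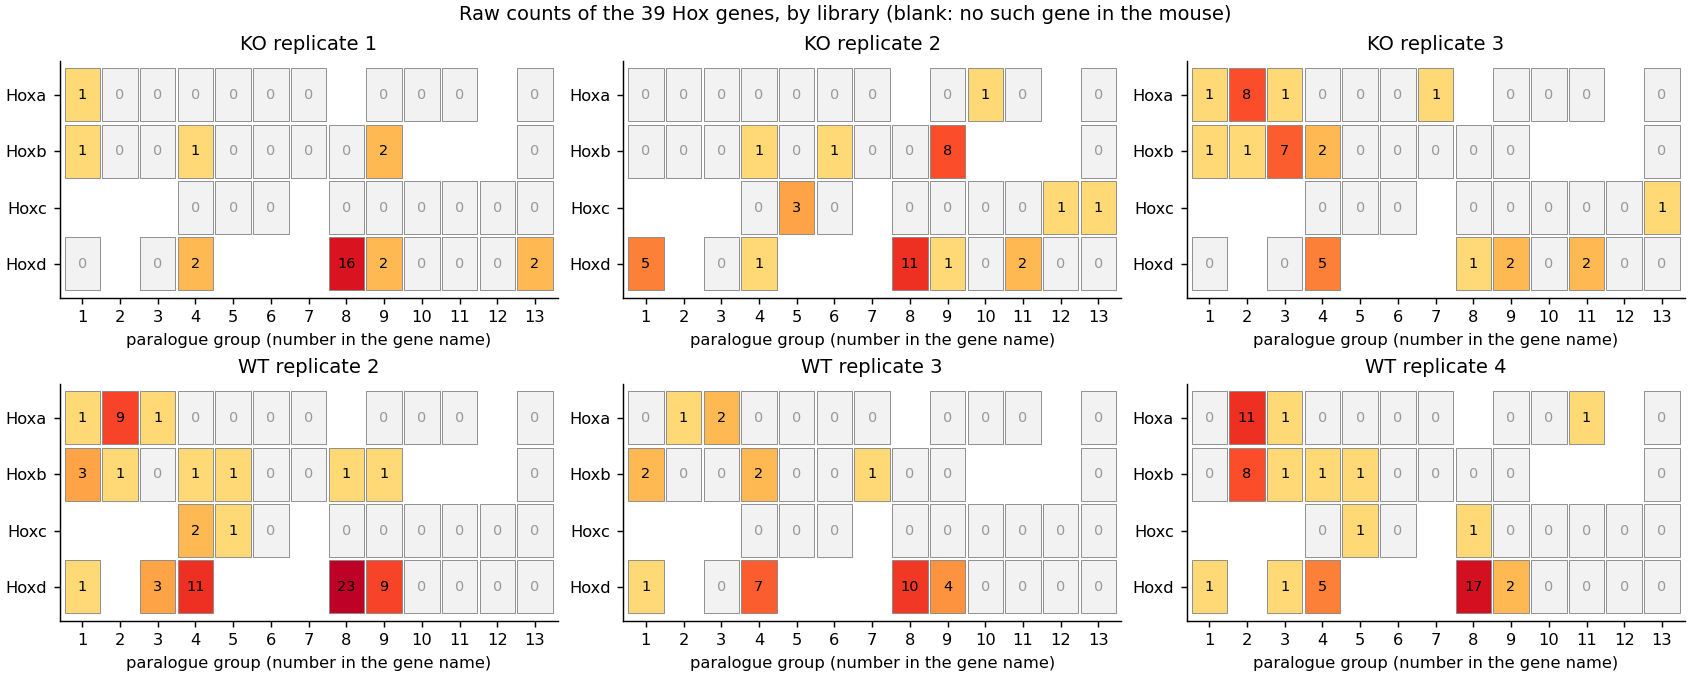
Raw counts of each Hox gene in the 3 KO libraries (top row) and the 3 WT libraries (bottom row), with clusters as rows and paralogue groups as columns. Most cells are 0 in every library, and the only cells of 10 or more belong to Hoxd8, Hoxd4 and Hoxa2.

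No count at all was recorded for 12 of the 39 genes: Hoxa4, Hoxa5, Hoxa6, Hoxa9, Hoxa13, Hoxb13, Hoxc6, Hoxc9, Hoxc10, Hoxc11, Hoxd10 and Hoxd12. They include Hoxa5, which patterns the airways and lung, and Hoxa13, which with Hoxd13 shapes the digits and the genital tubercle. A count of 0 allows up to 3 counts, or 0.166 to 0.227 CPM in a KO library and 0.107 to 0.134 CPM in a WT library. Another 21 genes had 1 to 9 counts over all 6 libraries, and 6 had 10 or more. Genes without a count made up 30.8% of Hox genes and 17.6% of all genes listed. Genes with under 10 counts made up 84.6% of Hox genes and 30.2% of all genes, and every Hox gene had under 100 counts, as had 41.6% of all genes.

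By group, 13 Hox genes had counts in KO and WT libraries, 7 in KO libraries alone and 7 in WT libraries alone. Those with counts in KO libraries alone were Hoxa7, Hoxa10, Hoxb6, Hoxc12, Hoxc13, Hoxd11 and Hoxd13. They held 12 counts between them, at most 4 for a gene, and 6 of the 12 came from KO replicate 2. Without that library, 4 genes had counts in KO alone and 9 in WT alone, with 15 uncounted. Those with counts in WT alone were Hoxa11, Hoxb5, Hoxb7, Hoxb8, Hoxc4, Hoxc8 and Hoxd3, with 1 to 4 counts each. The number of Hox genes with any count was 8, 12 and 13 in KO libraries, against 16, 9 and 14 in WT libraries. Drawn down to the depth of the shallowest library, the numbers were 6.59, 12 and 9.99 in KO libraries, against 11.1, 7.36 and 10.02 in WT libraries, which overlapped. A gain of Hox genes in KO shelves was therefore not detectable in the number of genes seen.

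Hoxd8, a mid-cluster gene of the trunk, carried the most counts. It had 16, 11 and 1 counts in KO libraries, against 23, 10 and 17 in WT libraries. That was 1.01, 0.832 and 0.0552 CPM in KO libraries and 0.819, 0.448 and 0.732 CPM in WT libraries. KO replicate 3 was the low library, and the KO values enclosed the WT values. Hoxd8 was the only Hox gene of the 39 to pass edgeR's filter on low counts, which 60.9% of all genes passed. Its log2 fold change was -0.15 (SE 0.73, edgeR quasi-likelihood adjusted p = 0.939). The sign turned to 0.46 without KO replicate 3 and to 0.04 without WT replicate 2. The pooled count ratio was 0.875, with a 95% exact interval of 0.531 to 1.42 that covers counting error only.

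Hoxd4 and Hoxd9, close to Hoxd8 in the cluster, were also among the 4 Hox genes with the highest mean CPM. Hoxd4, which acts in hindbrain and neck vertebrae, had 2, 1 and 5 counts in KO libraries, against 11, 7 and 5 in WT libraries. KO values lay low, but KO replicate 3 reached WT replicate 4, and in CPM the groups overlapped (0.127, 0.0757 and 0.276 CPM in KO libraries, 0.392, 0.314 and 0.215 CPM in WT libraries). The ratio was 0.544 (95% counting interval 0.210 to 1.26). Hoxd9, a gene of limb and lower trunk, had 2, 1 and 2 counts in KO libraries, against 9, 4 and 2 in WT libraries, a ratio of 0.521 (0.148 to 1.51). Hoxd3, which patterns the first neck vertebrae, had no count in KO libraries and 3, 0 and 1 in WT libraries. Hoxd4, Hoxd8 and Hoxd9, with Hoxb4 of the Hoxb cluster, were the only Hox genes with a count in every library. Hoxb4, a gene of neck vertebrae, had 1, 1 and 2 counts in KO libraries, against 1, 2 and 1 in WT libraries. Summed over the Hoxd cluster, the level was 1.15 ± 0.523 CPM in KO and 1.26 ± 0.364 CPM in WT (SD, n = 3 each), more than in any other cluster of either group.

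The Hox genes of the hindbrain and pharyngeal arches, paralogue groups 1 to 3, varied between libraries of the same group. Hoxa2, the selector gene of the second arch, had 0, 0 and 8 counts in KO libraries, against 9, 1 and 11 in WT libraries. In each group the values ranged from at most 1 to at least 8, so the groups overlapped, and the ratio was 0.595 (95% counting interval 0.228 to 1.40). Hoxb2, a regulator of rhombomere identity downstream of Egr2, had 0, 0 and 1 counts in KO libraries, against 1, 0 and 8 in WT libraries (ratio 0.174, interval 0.00396 to 1.25). Hoxb3, a gene of hindbrain and neck, had 0, 0 and 7 counts in KO libraries, against 0, 0 and 1 in WT libraries (ratio 10.9, interval 1.41 to 493). These counts sat in single libraries: KO replicate 3 held 7 of the 8 Hoxb3 counts, and WT replicate 4 held 8 of the 10 Hoxb2 counts. Hoxb1, which sets the identity of the fourth rhombomere, had 1, 0 and 1 counts in KO libraries, against 3, 2 and 0 in WT libraries. Hoxd1, known in mouse for the wiring of pain-sensing neurons, had 0, 5 and 0 counts in KO libraries, against 1, 1 and 1 in WT libraries. The group of low-numbered genes summed to 2, 5 and 19 counts in KO libraries, against 19, 6 and 23 in WT libraries.

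The high-numbered genes of paralogue groups 9 to 13, used in the lower trunk, limb ends and tail, held 6, 14 and 5 counts in KO libraries, against 10, 4 and 3 in WT libraries. Their summed level was 0.572 ± 0.426 CPM in KO and 0.221 ± 0.119 CPM in WT (SD, n = 3 each), a log2 ratio of 1.37, and of 0.57 without KO replicate 2. The largest part of the KO level came from Hoxb9, a gene of rib and thoracic identity, at a mean of 0.244 CPM. It had 2, 8 and 0 counts in KO libraries, against 1, 0 and 0 in WT libraries. Its ratio was 15.6 with a counting interval of 2.22 to 678, and KO replicate 3 without a count overlapped the WT libraries. Hoxd11, which with Hoxa11 forms the forearm, had 0, 2 and 2 counts in KO libraries and none in WT libraries. Hoxd13 had 2, 0 and 0 counts in KO libraries and none in WT libraries. Hoxc5, of the middle groups, was likewise counted mainly in KO replicate 2, with 0, 3 and 0 counts in KO libraries, against 1, 0 and 1 in WT libraries. Chosen as the extremes of many genes with few counts, these ratios carry no test beyond the fit described next.

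**Figure D2:**
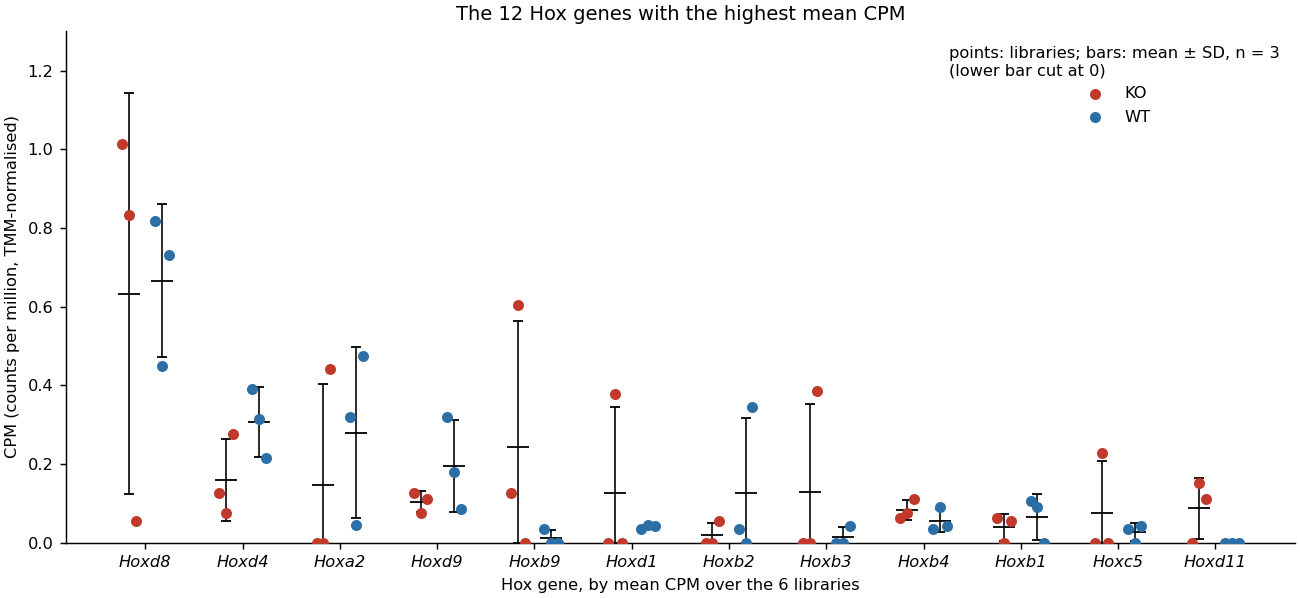
CPM of the 12 Hox genes with the highest mean, with KO libraries (red) left of WT libraries (blue), points for libraries and bars for mean ± SD (n = 3). Hoxd8 is the only gene near 1 CPM, and the high KO values of Hoxb9, Hoxd1 and Hoxb3 are single points.

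In the fit over all genes that passed the filter, 76 of 14233 genes (0.534%) were called at an adjusted p under 0.05 by edgeR's quasi-likelihood test. Of these, 14 were higher in KO (0.0984%) and 62 lower in KO (0.436%). No Hox gene was called, with a single Hox gene tested, and none had an unadjusted p under 0.05, which 2021 of the 14233 genes had. DESeq2 and limma voom, which also tested Hoxd8 alone of the Hox genes, did not call it. Without the filter, 27 Hox genes had a count and entered the fit, of which 0 were called. Of the 19262 genes in that fit 0.587% were called, 20 higher (0.104%) and 93 lower in KO (0.483%). Of the 27, 0 had an unadjusted p under 0.05, against 12.4%. The smallest adjusted p among the 27 was 0.416, for Hoxb9. Their fitted log2 fold changes were positive for 13 and negative for 14, with a median of -0.19 beside 0.02 over all genes. The KO and WT libraries did not overlap in CPM for 0 of the 27 Hox genes, against 19.5% of the genes in that fit. At this depth a change in most Hox genes was not detectable, and the counts do not show that none exists.

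Per length, the Hox genes lay far below palate genes and, in 5 of the 6 libraries, above olfactory receptor genes. Summed CPM divided by summed exon length was 0.0242 ± 0.00646 CPM per kb for the Hox genes in KO and 0.0234 ± 0.00684 in WT (SD, n = 3 each). The 22 palate mesenchyme genes reached 30.3 ± 1.28 CPM per kb in KO and 24.9 ± 0.972 in WT. Olfactory receptor genes, which are odorant receptors of nasal sensory neurons, served as a low yardstick, with 1089 genes that had a length. They gave 0.00528, 0.0330 and 0.00410 CPM per kb in KO libraries, against 0.00284, 0.00373 and 0.00219 in WT libraries. A few genes carried much of these sums. Of the 1102 receptor genes listed, 90.7% had no count in any library, and 1 to 4 per library had at least 10 counts. A count was present in 0.726% to 7.35% of receptor genes by library, against 20.5% to 41.0% of Hox genes. Without Hoxd4, Hoxd8 and Hoxd9, the Hox genes gave 0.00563, 0.0221 and 0.0175 CPM per kb in KO libraries, against 0.0118, 0.00512 and 0.0153 in WT libraries. In KO replicate 2 both sets stood highest, and there the olfactory receptors were above the remaining Hox genes. Counts of 1498 for olfactory receptors in that library, against 175 to 287 in the others, moved with its Hoxb9, Hoxd1 and Hoxc5 counts, and their part in those counts was not tested.

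**Figure D3:**
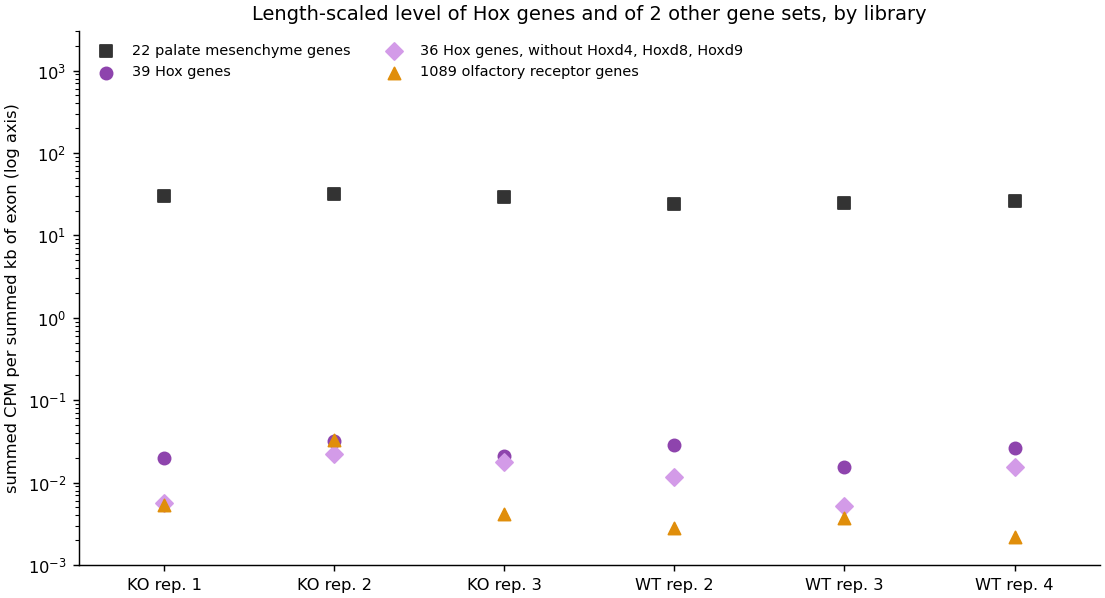
Summed CPM per summed kb of exon (log axis) in each library, KO libraries left of WT libraries, for palate mesenchyme genes, all Hox genes, Hox genes without Hoxd4, Hoxd8 and Hoxd9, and olfactory receptor genes. The Hox genes lie between 0.0156 and 0.0316 CPM per kb in all 6 libraries, and the olfactory receptors reach 0.0330 in KO replicate 2.

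On the same scale of level per kb, Hoxd8 led with 0.231 ± 0.185 CPM per kb in KO and 0.243 ± 0.0706 in WT. Hoxa2 came next with 0.0830 ± 0.144 in KO and 0.158 ± 0.122 in WT, then Hoxd4 with 0.0623 ± 0.0407 in KO and 0.120 ± 0.0345 in WT, and Hoxd9 with 0.0488 ± 0.0122 in KO and 0.0914 ± 0.0552 in WT (SD, n = 3 each). Each gene in that order differed from the next by less than the larger of their SDs, in KO and in WT. In the order by mean over both groups Hoxb9 followed Hoxd9, at 0.0948 ± 0.124 in KO and 0.00461 ± 0.00798 in WT.

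Most genes next to the clusters were expressed. Of the 40 counted protein-coding genes nearest to the clusters, 5 on either side of each, 34 averaged at least 1 CPM, with medians of 29.2 CPM in KO and 27.1 CPM in WT. Calcoco1, beside Hoxc13, had 55.3 ± 4.87 CPM in KO and 46.2 ± 2.04 CPM in WT, and Mtx2, beside Hoxd1, had 41.3 ± 8.88 CPM in KO and 43.0 ± 5.68 CPM in WT (SD, n = 3 each). The homeobox genes Evx1 and Evx2, which continue the Hoxa and Hoxd clusters, were among the other 6 (with Calcoco2, Ttll6, Skap1 and Nfe2). They had 0.0674 ± 0.0637 and 0.0395 ± 0.0344 CPM in KO, and 0.140 ± 0.103 and 0.0149 ± 0.0259 CPM in WT. Of the 35 neighbours tested, 0 rose and 0 fell in KO (edgeR, adjusted p under 0.05). Within the clusters, 12 further rows were listed, mostly microRNAs and antisense transcripts such as Hotair, and 11 of them had no count in any library. The remaining row, Mira, had 2. The 6 microRNA rows say little about silence, since the libraries were made with an mRNA kit.

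**Figure D4:**
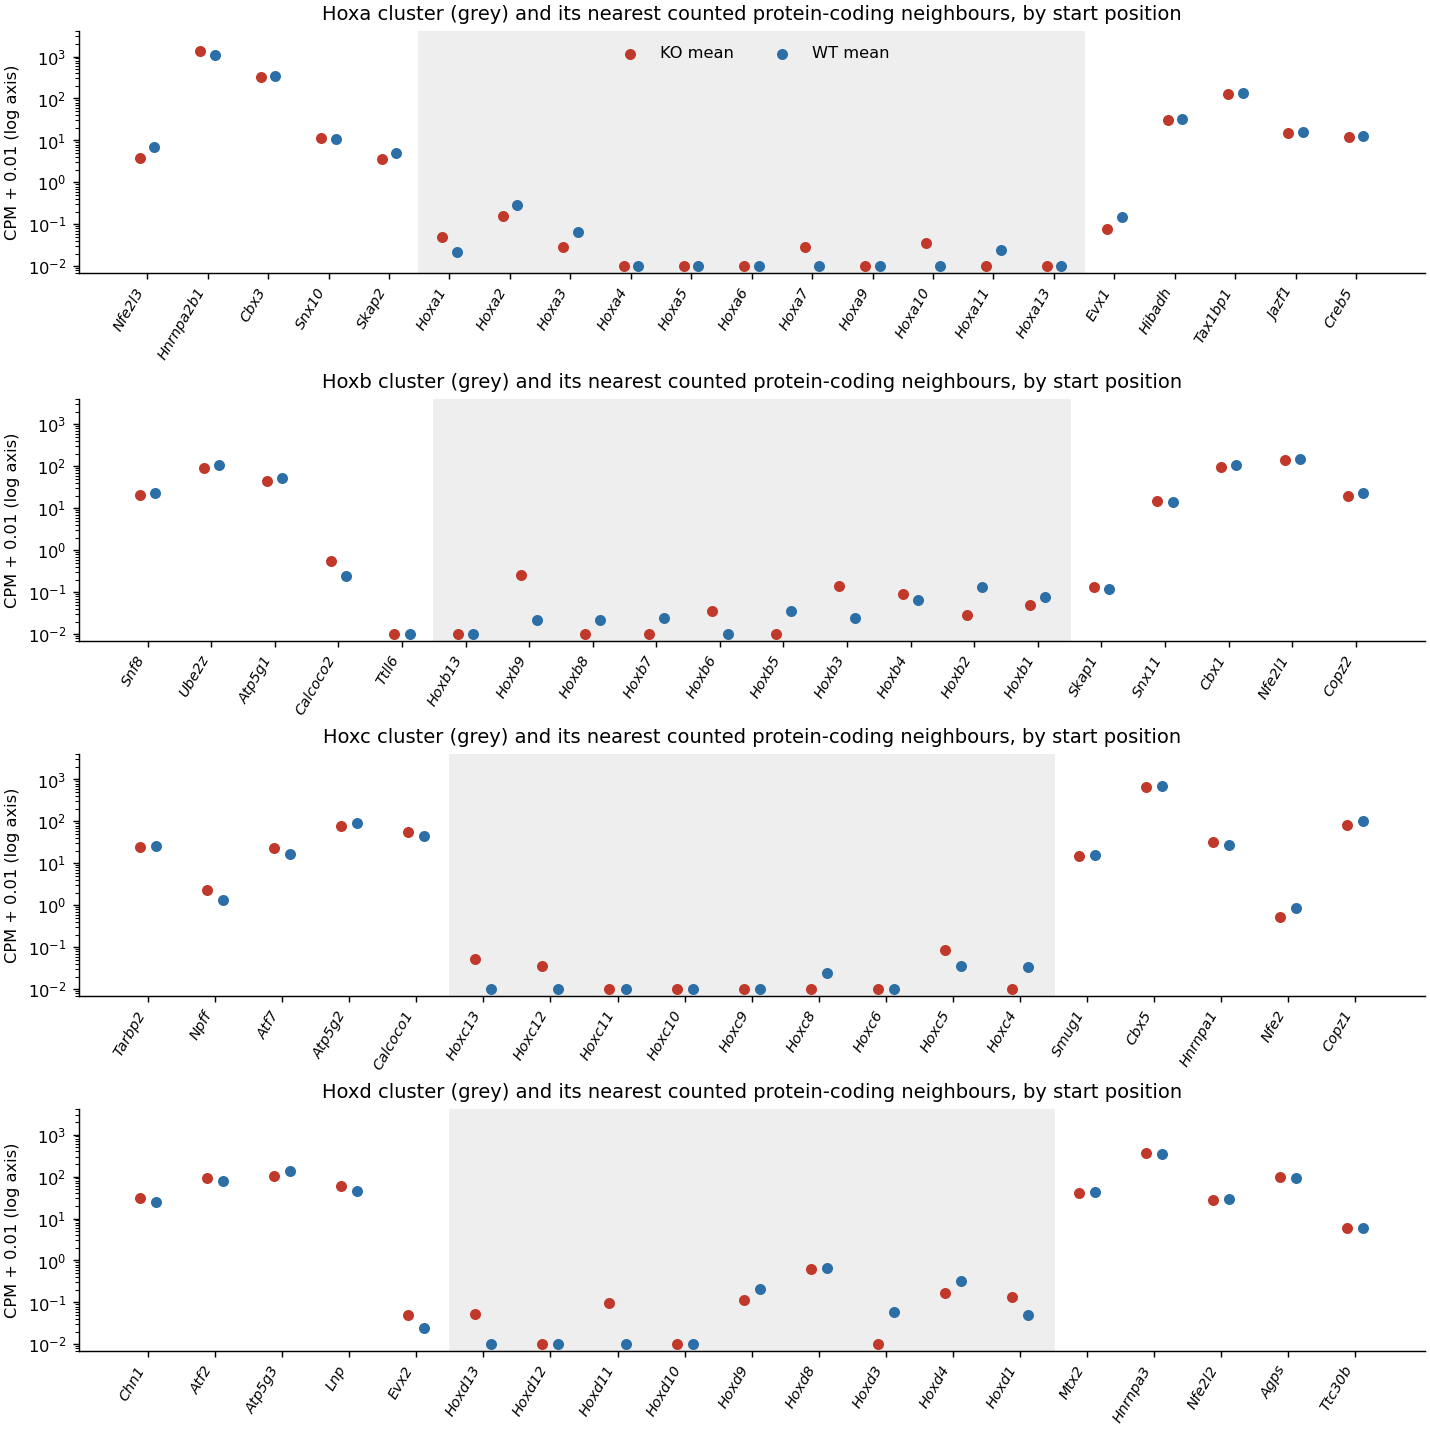
Mean CPM + 0.01 (log axis) in KO (red) and WT (blue) of the Hox genes of each cluster (grey) and the 5 nearest counted protein-coding genes on either side, ordered by start position. Most flanking genes lie between 1 and 1000 CPM in both groups, while the Hox genes lie under 1 CPM.

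Most of each Hox gene was unique at the read length, other genes within the clusters aside. In GENCODE transcripts, a median of 98.95% of the 25-base windows of a Hox gene were found in no other Hox gene and in no gene outside the clusters. The lowest share was 86.01%, for Hoxd3. Genes within the clusters that are not Hox genes were left out of that search, so windows shared with them were taken as unique. Hoxa3, Hoxa7, Hoxa11 and Hoxd3 share exon bases with a counted gene on the opposite strand, and since the strand setting of the counting is not given, their values are uncertain.

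The partners and regulators of Hox genes were well covered, and with all 6 libraries only retinoid genes among them passed the test. All 9 Hox cofactors of the TALE class (Pbx, Meis and Pknox genes, whose proteins bind DNA with Hox proteins) were tested, and 0 rose and 0 fell. The smallest p belonged to Pbx4, at 1.38 ± 0.250 CPM in KO and 0.783 ± 0.0638 CPM in WT (log2 fold change 0.80, SE 0.34, adjusted p = 0.350). Of 30 Polycomb genes, all tested, 0 rose and 0 fell. Ezh2 had 133 ± 7.88 CPM in KO and 125 ± 6.15 CPM in WT (log2 fold change 0.09, SE 0.10, adjusted p = 0.690). Cbx6, a reader of Polycomb methylation, had the smallest p, at 94.9 ± 7.33 CPM in KO and 133 ± 8.64 CPM in WT (log2 fold change -0.49, SE 0.11, adjusted p = 0.132, and 0.0262 without KO replicate 2). Of 16 Hox activators and trithorax genes, which keep Hox genes on, 0 rose and 0 fell. Kmt2d itself was among them, and the log2 fold changes were positive for 13 and negative for 3. Mll1 (Kmt2a) had 222, 419 and 200 CPM in KO libraries, against 174, 172 and 144 CPM in WT libraries (log2 fold change 0.78, SE 0.27, adjusted p = 0.304), with KO replicate 2 far above the rest.

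The median log2 fold change was -0.13 over the cofactors, 0.04 over the Polycomb genes and 0.18 over the activators, beside 0.01 over all genes tested. None of the 8 ParaHox and Evx genes, the closest relatives of Hox genes, passed the filter. Among 17 genes of retinoid response and breakdown, a signal that turns low-numbered Hox genes on in the hindbrain, 0 rose and 2 fell. Crabp2, which carries retinoic acid in the cell, had 29.9, 17.6 and 26.4 CPM in KO libraries, against 65.0, 68.6 and 80.1 CPM in WT libraries (log2 fold change -1.53, SE 0.20, adjusted p = 0.0342). Aldh1a1, a retinoic acid synthesis enzyme, had 1.33, 1.59 and 0.994 CPM in KO libraries, against 4.52, 6.54 and 4.52 CPM in WT libraries (log2 fold change -2.0, SE 0.30, adjusted p = 0.0451). The groups did not overlap in either gene, as was so for 23.5% of the 14233 genes tested. The edgeR test made 0 calls over all genes without WT replicate 2 or without WT replicate 3, so both calls end there. Without KO replicate 2, 5 retinoid genes fell: Crabp2, Aldh1a1, Crabp1 (log2 fold change -0.76, adjusted p = 0.00385), Stra6 (-1.42, 0.0183) and Rarg (-0.46, 0.0205). Calls rose over the whole table in that setting, to 306 of 14450 genes (227 lower in KO) from 76 of 14233 (62 lower in KO). Of 4 tested hindbrain regulators of Hox genes 0 rose and 0 fell.

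Markers of tissues that use Hox genes, or that could have come along in the dissection, were counted beside these results. Of 10 tested trunk, limb and somite markers 0 rose and 0 fell, their summed level ran from 146 to 290 CPM in KO and from 117 to 189 CPM in WT. Much of that sum was Tfap2b, at 41.0, 212 and 78.6 CPM in KO libraries, against 66.7, 17.3 and 51.1 CPM in WT libraries, a gene also used in the head. A shorter set of 6 trunk and limb markers ran from 5.98 to 14.1 CPM in KO and from 10.7 to 15.0 CPM in WT, with Uncx at 0 in every library. Tbx4 had the smallest p in that list, at 0.574 ± 0.219 CPM in KO and 1.56 ± 0.244 CPM in WT (adjusted p = 0.230). Of 13 tested muscle markers 0 rose and 0 fell, with a summed level of 270 to 11531 CPM in KO and 344 to 639 CPM in WT. Ttn, the giant sarcomere protein, alone gave 10160 CPM in KO replicate 2. The muscle regulators Myod1 and Myog stood at 17.1 and 27.5 CPM in that library, against 7.80 to 15.7 and 20.1 to 31.4 CPM in the others. Of the remaining lists, neurons (11 tested), Schwann cells and melanoblasts (6), endothelium (9), leukocytes (11), erythroid cells (7), oral epithelium (13), pharynx and skin appendage (4) and palate mesenchyme (21) had 0 genes that rose and 0 that fell. The smallest p belonged to Pou4f1 in neurons (adjusted p = 0.525), Emcn in endothelium (0.285) and Mrc1 in leukocytes (0.0528), by edgeR. In further lists it belonged to Hbb-b1 in erythroid cells (adjusted p = 0.389), Shh in oral epithelium (0.0680), Lef1 in skin appendages (0.217) and Lhx8 in palate mesenchyme (0.115). Of the epithelial genes 12 of 13 had a negative log2 fold change (median -0.57), as had 8 of 9 endothelial genes (median -0.33), beside a median of 0.01 over all genes tested. Without KO replicate 2, 4 epithelial genes fell (Shh, Krt15, Krt18 and Cdh1, adjusted p = 0.0218, 0.00405, 0.0471 and 0.0483), Mrc1 fell among leukocyte genes (0.0110), and in the palate mesenchyme list Lhx8 rose (0.0443) and Prrx2 fell (0.0102). Over all 14450 genes tested in that setting, 79 rose and 227 fell. Among 6 tested osteoblast genes 0 rose and 1 fell, Col1a1 at 709 ± 108 CPM in KO and 2236 ± 614 CPM in WT (log2 fold change -1.66, SE 0.22, adjusted p = 0.0376, and 0.0813 without KO replicate 2). That call too ends without WT replicate 2 or 3. The part of these markers in the Hox counts was not tested.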

How the data were processed

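Palatal shelf RNA was profiled in 3 KO and 3 WT libraries, and the groups and replicate numbers came from the sample titles and genotype labels. Each deposited table gives raw counts by gene symbol, neither normalised nor, as far as recorded, pooled by the authors. Per the labels' protocols, RNA was extracted in Trizol and made into libraries with a stranded mRNA kit, sequenced as 25 bp paired reads. The submitters' processing notes name TopHat2, SAMtools, HTSeq and build mm9. For annotation, strand and multiple alignments the settings were not given in the sources used here. Library sizes and tests left out the 5 category lines of the counting program. Pairs with more than 1 alignment were 18.1% to 30.3% of the listed total and could lower counts of near-identical genes.

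Counts were scaled by TMM and tested with edgeR 4.0.16 (R 4.3.3), filterByExpr, quasi-likelihood, Benjamini-Hochberg adjustment at 0.05, no covariate, and the code was tested on simulated data. Ratios of counts have exact 95% binomial intervals, and a 0 is read as up to 3 counts; both cover counting error only. The labels name no molecular identifiers, so reads are not independent molecules. Same-group libraries differed beyond sampling noise (chi-square per degree of freedom 11.0 to 153), so the tests kept all libraries apart. The count ratios pool the 3 libraries of a group, and their intervals leave out that extra spread and are too narrow for it. Exon lengths and 25-base windows came from GENCODE vM21, and gene order and promoters from RefSeq GRCm38.p6, another build than that of the counts. Alternatives were other size factors, DESeq2 1.42.0, limma voom 3.58.1, other filters, leaving out each library, and a replicate block.

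The Hox genes and gene lists were chosen with earlier results of these data known. Values per library are given for Hox genes past the threshold, the 12 with the highest mean CPM, and further non-overlapping genes with 10 counts; Hoxd3 and Hoxd13 were added after their values were seen. From each list, genes past the threshold or the 1 with the smallest p were named, with Kmt2d always (a few genes that the rule names are not reported here), and Ezh2, Barx1, Myod1, Myog, Calcoco1 and Mtx2 were named as landmarks after their values were seen.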

Additional observations from a re-analysis of the deposited data

How the results depend on the processing

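The number of Hox genes called was 0 under every alternative that left a Hox gene to test, and a filter of 1 CPM in 3 libraries left none. Those alternatives tested Hoxd8 alone, apart from the fit without the filter, with 27 Hox genes. The summed Hox level (log2 ratio 0.05) ran from -0.19 without KO replicate 2 to 0.22 without WT replicate 2, and Hoxd8, the only Hox gene tested, from -0.78 with limma voom, and -0.76 without KO replicate 1, to 0.46 without KO replicate 3, turning to 0.04 without WT replicate 2. Hox genes with a count in KO alone numbered 7, and 4 without KO replicate 2, and the log2 ratio of paralogue groups 9 to 13 was 1.37, and 0.57 without that library, settings added after seeing the data. The median number of Hox genes with at least 10 counts was 1 in KO and 2 in WT libraries. It was 3 in KO and 4 in WT at 3 counts, and 0 in KO and 0 in WT at 30 counts. Drawn to the depth of the shallowest library in total gene counts, Rn45s among them, it was 0.755 in KO and 0.594 in WT. Genes called over the whole table numbered 76, 486 with DESeq2, and 0 to 306 on leaving out 1 library: 0 without WT replicate 2 or 3 (1102 and 1117 genes at an unadjusted p under 0.05), 3 without WT replicate 4, and 20, 306 and 11 without KO replicate 1, 2 and 3. The replicate block gave 298. Only the numbers 2 and 3 occur in both groups, and the deviations of the same-numbered libraries correlated at 0.239 and -0.153, so the numbers were not taken as pairs, and the block called 0 Hox genes. Leaving out KO replicate 2 also moved the members called in the gene lists, as given with each list, a setting added after seeing the data. Apart from the changes by construction, the cause was not tested. Depth limits these data: a count of 0 in a KO library allows up to 0.166 to 0.227 CPM.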

Other observations

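Hox paralogue groups 1 to 3 varied between libraries of a group, and so did Pax1, a gene of the sclerotome and the pharyngeal pouches that was chosen after its values were seen. Hox groups 1 to 3 had 0.127, 0.378 and 1.05 CPM in KO replicates 1, 2 and 3, against 0.676, 0.269 and 0.990 CPM in WT replicates 2, 3 and 4. Pax1 had 3.23, 1.67 and 10.5 CPM in the same KO libraries, against 9.15, 5.29 and 8.27 CPM in the WT libraries. KO replicate 3, WT replicate 2 and WT replicate 4 were the 3 highest libraries in each measure. The order within groups differed: KO replicate 1 was above KO replicate 2, and WT replicate 2 above WT replicate 4, in Pax1 and below it in the Hox genes. Pax1 itself did not pass the threshold between groups (log2 fold change -0.54, SE 0.58, edgeR adjusted p = 0.679). It came from the trunk, limb and somite list, whose other genes were mixed. Nkx3-2 had the same 3 highest libraries, while Meox1 and Hand2 did not. Meox1 was highest in KO replicate 1 (5.19 CPM) and lowest in KO replicate 3 (1.49 CPM).

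The Hoxd counts had another distribution over the libraries. Hoxd3, Hoxd4, Hoxd8 and Hoxd9 summed to 1.27, 0.984 and 0.442 CPM in KO libraries, against 1.64, 0.941 and 1.08 CPM in WT libraries, and KO replicate 3, the KO library with the most Hoxa2 and Hoxb3, had the least. Both patterns rest on a few counts in 6 libraries and are given as values.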
